A study of Homo sapiens with 6 samples.

Results

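Aldehyde dehydrogenases (ALDH) are a family of enzymes described here through 9 members: ALDH1A1, ALDH1A3, ALDH1B1, ALDH2, ALDH3A1, ALDH3A2, ALDH3B1, ALDH7A1 and ALDH9A1. They were picked by name from the 19 human ALDH genes in a deposited table of 58735 genes, and all 9 passed the filter on low counts, as did 15319 genes of the table. RNA was sequenced from AsPC-1, an established human pancreatic cancer cell line, in 6 libraries. The Vector group (n = 3) was wild-type AsPC-1 given an empty lentivirus, and the OE-MMP28 group (n = 3) was AsPC-1 given a lentivirus that overexpresses MMP28, a secreted matrix metalloproteinase. The libraries called Vector here are titled NC. The study uses sh-NC for its knockdown control and Vector for its overexpression control, and the latter was taken to be meant. By the study's methods the MMP28 virus carried GFP and puromycin resistance and the cells were selected with puromycin, and the control virus of the overexpressing cells is not described beyond being empty. The labels do not say whether the 3 libraries of a group came from separate cultures, so the p-values measure only the spread between these libraries, which may be technical.

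Aldehydes arise when cells break down alcohols, amines, amino acids, membrane lipids and vitamin A, and many of them react with proteins and DNA. ALDH enzymes oxidise an aldehyde to its carboxylic acid with NAD or NADP as the electron acceptor, in the cytosol, in mitochondria or at membranes depending on the member. Those acting on retinaldehyde make retinoic acid, the ligand of the retinoic acid receptors, and high ALDH activity is widely used to sort stem-like cells from tumours of epithelial origin, pancreatic cancer included.

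Total counts ranged from 13633249 to 16691458 per library. MMP28 itself was 5.17, 9.11 and 8.43 FPKM in Vector libraries 1 to 3 and 13.1, 13.9 and 15.1 FPKM in the OE-MMP28 libraries. FPKM are fragment counts divided by gene length and by a library size as scaled by the authors. The log2 fold change of MMP28 was 0.90 ± 0.19 (SE, edgeR, adjusted p = 0.00226). Mitochondrial genes took 11.9% to 14.8% of all counts in Vector libraries and 8.80% to 11.9% in OE-MMP28 libraries. All 7 ductal epithelial markers were detected, with summed levels of 2592 to 3540 FPKM in the Vector group and 3580 to 4374 FPKM in the OE-MMP28 group, carried by KRT8, KRT18 and KRT19. In edgeR 2 of them were called higher, KRT19 and MUC1, and 1 lower, CDH1 (without OE-MMP28 library 3 the adjusted p of CDH1 was 0.0609). Of 15 markers of other cell types, the matrix gene LUM held nearly all the signal (37.3 FPKM in Vector and 45.3 FPKM in OE-MMP28, group means), and the summed level ran from 35.1 to 42.1 FPKM and from 40.3 to 58.1 FPKM. The other 14 were below 1 FPKM in both group means. PTPRC, CD163, CDH5 and COL1A2 had at most 1 count in any library and PRSS1 and CPA1 had 0, while CTRB1 had up to 8 counts and CD14 had 17 to 30. The endothelial marker PECAM1 was called higher, at 0, 4 and 4 counts in Vector and 13, 21 and 30 in OE-MMP28 (edgeR, adjusted p = 0.00361). The part of these differences in the results on the ALDH genes was not tested, beyond a fit without the mitochondrial genes, in which the calls on the 9 genes did not change. In bulk RNA a lower level can come from fewer cells of a kind or from less RNA per cell, and these cannot be told apart.

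Of the 9 genes, ALDH2, ALDH1B1 and ALDH1A3 were higher in the OE-MMP28 group, ALDH1A1 was lower, and ALDH3A1, ALDH3A2, ALDH3B1, ALDH7A1 and ALDH9A1 did not pass the test (edgeR's quasi-likelihood test, Benjamini-Hochberg adjusted p under 0.05 over all genes tested). The 3 genes called higher are to be read against 11.7% of all tested genes called higher, the 1 called lower against 11.6%, and the 4 called in either direction against 23.4%. For 5 of the 9 genes the FPKM ranges of the groups lay apart, against 38.1% of all tested genes. The median log2 fold change of the 9 was 0.18, and it was 0.01 over all tested genes. The signs were mixed, with 7 positive and 2 negative estimates.

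**Figure D1:**
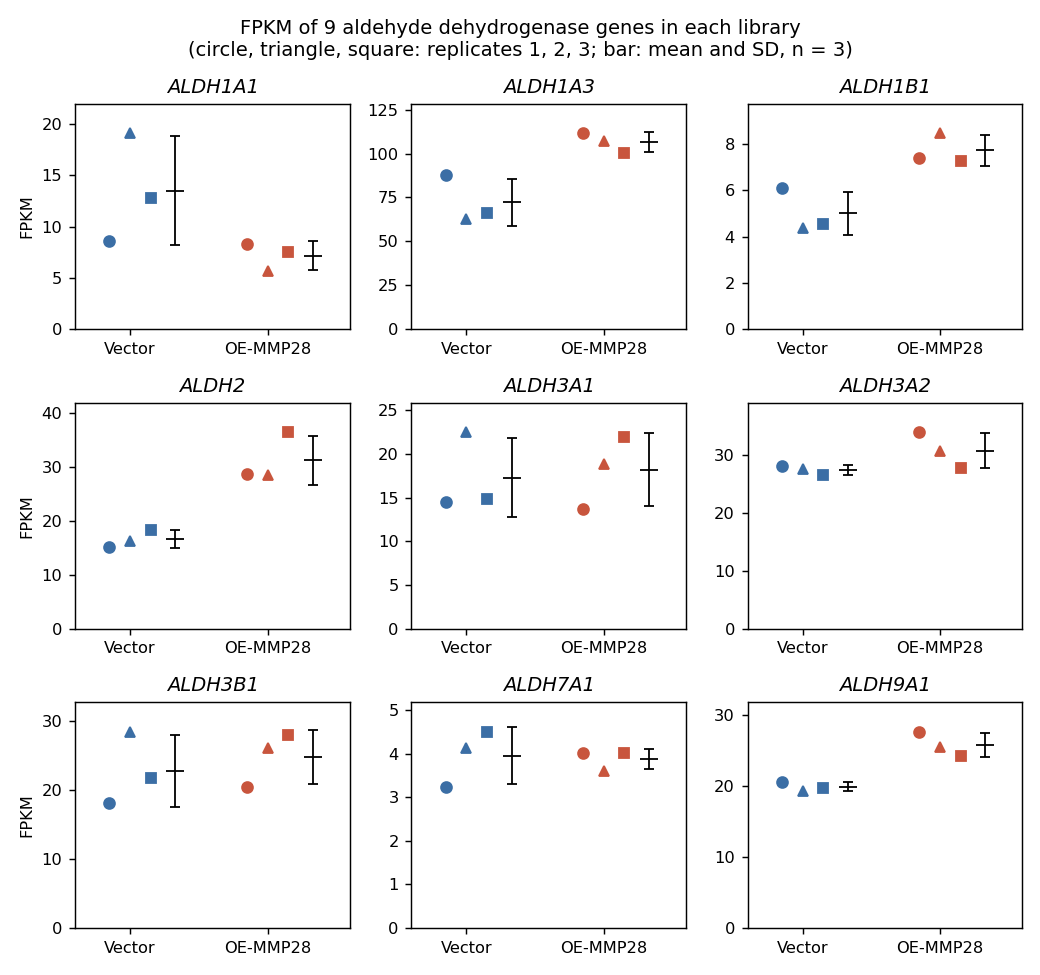
FPKM (linear axis from 0, a scale of its own for each gene) of the 9 ALDH genes in each library, with Vector in blue and OE-MMP28 in red. Circle, triangle and square are replicates 1, 2 and 3, and the bar is the mean and SD (n = 3). The groups lie apart for ALDH1A1, ALDH1A3, ALDH1B1, ALDH2 and ALDH9A1 and overlap for the other 4.

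**Figure D2:**
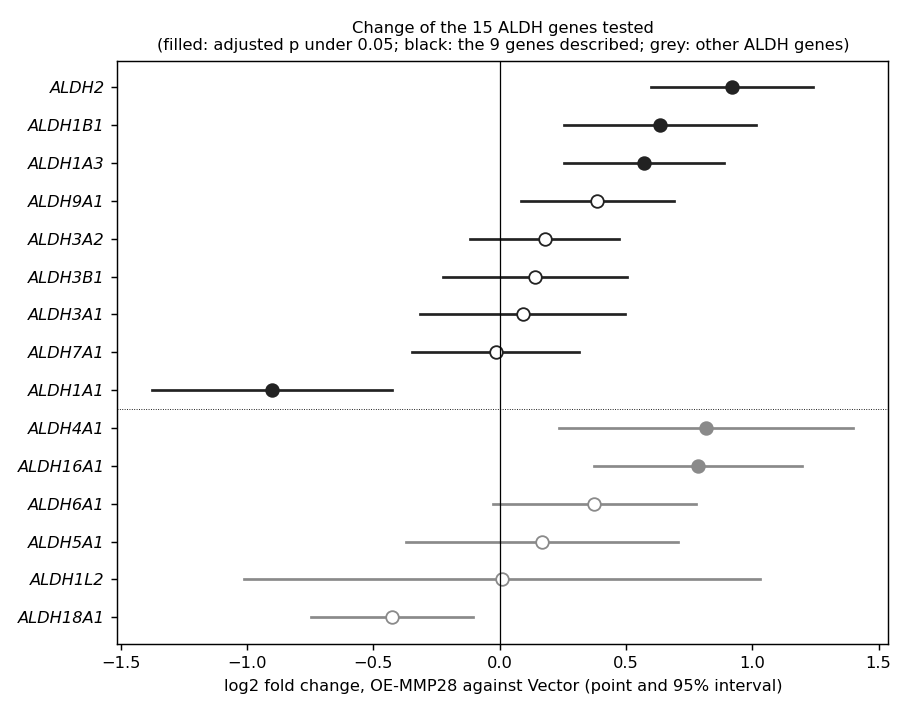
Log2 fold change, OE-MMP28 over Vector, of the 9 genes (black) and the other 6 ALDH genes tested (grey), with 95% intervals from edgeR and filled points where the adjusted p was under 0.05. ALDH2 had the highest estimate of the 9, 0.92, and ALDH1A1 the lowest, -0.90, and the intervals of ALDH3A1, ALDH3A2, ALDH3B1 and ALDH7A1 span 0.

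The retinaldehyde dehydrogenases ALDH1A1 and ALDH1A3, cytosolic enzymes that turn retinaldehyde into retinoic acid, moved in opposite directions. ALDH1A1 (ENSG00000165092) lies on the minus strand of chromosome 9 from 72900662 to 73080442 (GRCh38, as are all gene positions here). Its level was 8.61, 19.1 and 12.8 FPKM in Vector libraries 1, 2 and 3 and 8.34, 5.65 and 7.53 FPKM in OE-MMP28 libraries 1, 2 and 3, from 255 to 736 counts per library. Every OE-MMP28 library was below every Vector library, but Vector library 1 was only just above OE-MMP28 library 1. The mean fell from 13.5 ± 5.29 to 7.17 ± 1.38 FPKM (SD, n = 3). The log2 fold change was -0.90 ± 0.23 (SE, 95% interval -1.37 to -0.43; edgeR, adjusted p = 0.00699). Vector library 2 carried much of the fall: without it the estimate was -0.57 (edgeR, adjusted p = 0.0471). Without OE-MMP28 library 2 the estimate was -0.77 and the call was lost (edgeR, adjusted p = 0.0602), and limma on log2(FPKM + 1) did not call it either (-0.78, adjusted p = 0.0883).

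ALDH1A3 (ENSG00000184254) lies on the plus strand of chromosome 15 from 100877714 to 100916626. It was the most abundant of the 9, at 87.5, 62.9 and 66.0 FPKM in the Vector libraries and 112, 107 and 100.2 FPKM in the OE-MMP28 libraries. All 3 OE-MMP28 libraries were above all 3 Vector libraries, and among the Vector libraries ALDH1A3 was highest in library 1 and lowest in library 2, the reverse of ALDH1A1. Its mean rose from 72.2 ± 13.4 to 106 ± 5.77 FPKM, a log2 fold change of 0.57 ± 0.15 (SE, 95% interval 0.25 to 0.89; edgeR, adjusted p = 0.00981). Without Vector library 3 it was 0.51 and no longer past the threshold (edgeR, adjusted p = 0.0656). The value is uncertain in another way: an antisense gene, AC015712.2, covers 27.5% of the exon length of ALDH1A3, and whether the counting used the strand is not given in the sources used here. AC015712.2 had up to 1163 counts in a library, against 4908 to 10188 for ALDH1A3, and a log2 fold change of 0.05 ± 0.20 (SE, edgeR, adjusted p = 0.899).

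As a share of the 2 genes together, ALDH1A1 made up 8.95%, 23.3% and 16.2% of their summed FPKM in the Vector libraries and 6.96%, 5.00% and 6.99% in the OE-MMP28 libraries. This share was chosen after the values of both genes had been seen and was not tested. The sum of the pair was 85.7 ± 9.21 FPKM in Vector and 114 ± 6.13 FPKM in OE-MMP28, and ALDH1A3 made up most of it in every library.

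The starts of these genes differ in base composition, so the 150 bases before the RefSeq start (GRCh38.p14) are shown for the 3 called genes that have an entry, 5′ to 3′ on the strand of the gene. They are at chr9:72953054-72953203 (minus strand) for ALDH1A1, chr15:100879681-100879830 (plus strand) for ALDH1A3 and chr9:38392552-38392701 (plus strand) for ALDH1B1. Capitals mark matches, on either strand, to CCAAT or to GCGTG, the core of the element bound by the aryl hydrocarbon receptor (AHR):
ALDH1A1: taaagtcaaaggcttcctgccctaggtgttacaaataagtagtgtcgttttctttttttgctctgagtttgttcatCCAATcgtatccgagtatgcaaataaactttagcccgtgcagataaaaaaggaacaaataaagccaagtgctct
ALDH1A3: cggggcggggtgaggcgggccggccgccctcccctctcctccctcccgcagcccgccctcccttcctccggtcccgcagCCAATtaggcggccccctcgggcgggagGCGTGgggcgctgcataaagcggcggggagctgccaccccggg
ALDH1B1: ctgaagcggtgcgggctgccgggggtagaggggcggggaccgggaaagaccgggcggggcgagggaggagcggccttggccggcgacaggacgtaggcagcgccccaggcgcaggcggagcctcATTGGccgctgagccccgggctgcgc
Of the 9 genes 7 had a promoter entry, and ALDH2 and ALDH3A1 had none. Over the 250 bases before the start, GC content was 38.4% for ALDH1A1, 82.4% for ALDH1A3 and 70.4% for ALDH1B1, beside a median of 58.0% over 35116 RefSeq promoters. CCAAT lay 74 bases before the start in ALDH1A1, 71 in ALDH1A3, 26 in ALDH1B1 (as its reverse complement), 30 in ALDH3A2 and 63 in ALDH7A1, and 32.0% of all promoters hold it in a window of this length. GCGTG was found in ALDH1A3 and ALDH3A2 (32.2% of all promoters). ALDH3A2 and ALDH3B1 each had a further RefSeq start with a window of its own. In ALDH3A2 both matches lay in the window at chr17:19648501-19648750, and the window at chr17:19647886-19648135 held none of these motifs. Neither TATAAA (10.7%) nor TGACNNNGC, the core of the antioxidant response element (10.9%), was found in the windows of the 7 genes. None of these motifs overlapped another in the 3 sequences shown. The RefSeq starts of the 3 genes shown lie inside the deposited gene spans and not at their ends. A match is only a run of letters, and binding was not measured.

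ALDH2 and ALDH1B1 are mitochondrial enzymes of similar sequence, and both oxidise acetaldehyde, the product of ethanol oxidation. ALDH2 also clears aldehydes formed by lipid peroxidation. ALDH2 (ENSG00000111275; chromosome 12, 111766887 to 111817529, plus strand) was at 15.2, 16.3 and 18.4 FPKM in the Vector libraries and 28.6, 28.5 and 36.3 FPKM in the OE-MMP28 libraries. The lowest OE-MMP28 library was well above the highest Vector library. The mean rose from 16.6 ± 1.61 to 31.2 ± 4.49 FPKM (SD, n = 3), 1.88-fold, with a log2 fold change of 0.92 ± 0.15 (SE, 95% interval 0.60 to 1.24; edgeR, adjusted p = 0.000263). Of all tested genes 4.35% had a higher estimate. ALDH2 passed the threshold in all 18 alternative fits, with log2 fold changes from 0.64 to 1.00. The lowest of them took off the median change of the 148 tested genes within 10 Mb of it, which was itself 0.28 (edgeR, adjusted p = 0.00717).

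ALDH1B1 (ENSG00000137124; chromosome 9, 38392664 to 38398661, plus strand) was lower in abundance, at 6.09, 4.36 and 4.56 FPKM in the Vector libraries and 7.42, 8.48 and 7.29 FPKM in the OE-MMP28 libraries. The groups did not overlap. Its mean rose from 5.01 ± 0.949 to 7.73 ± 0.652 FPKM, a log2 fold change of 0.64 ± 0.18 (SE, 95% interval 0.26 to 1.02; edgeR, adjusted p = 0.0155). With 186 to 424 counts per library this call rested on several libraries: in edgeR the adjusted p was 0.0543 without Vector library 2, 0.0811 without Vector library 3 and 0.103 without OE-MMP28 library 2. The sum of the 2 mitochondrial enzymes was 21.6 ± 1.17 FPKM in Vector and 38.9 ± 4.14 FPKM in OE-MMP28, a sum chosen after the values of both had been seen and given without a test.

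The ALDH3 enzymes act on medium and long chain and aromatic aldehydes. None of the 3 passed the test, and their groups overlapped. ALDH3A1, an enzyme induced through AHR and abundant in the cornea, lies on chromosome 17 from 19737984 to 19748943 (ENSG00000108602, minus strand). It was at 14.5, 22.5 and 14.8 FPKM in the Vector libraries and 13.7, 18.9 and 22 FPKM in the OE-MMP28 libraries, with a log2 fold change of 0.09 ± 0.19 (SE, 95% interval -0.31 to 0.50; edgeR, adjusted p = 0.780). The highest and the second lowest libraries were both Vector libraries. ALDH3B1, a membrane-anchored enzyme for lipid-derived aldehydes, lies on chromosome 11 from 68008578 to 68029282 (ENSG00000006534, plus strand). It was at 18.1, 28.4 and 21.7 FPKM and at 20.4, 26.1 and 27.9 FPKM in the respective groups, with a log2 fold change of 0.14 ± 0.17 (SE, 95% interval -0.23 to 0.50; edgeR, adjusted p = 0.612). The libraries of each group stood in the same order for both genes, replicates 1, 3, 2 from low to high in Vector and 1, 2, 3 in OE-MMP28.

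ALDH3A2, the fatty aldehyde dehydrogenase of the endoplasmic reticulum that is defective in Sjögren-Larsson syndrome, neighbours ALDH3A1 on chromosome 17 (19648136 to 19677598, ENSG00000072210, plus strand). It was steadier, at 28.0, 27.5 and 26.4 FPKM in Vector and 33.8, 30.5 and 27.7 FPKM in OE-MMP28. Only OE-MMP28 library 3 lay within the Vector range, and the log2 fold change was 0.18 ± 0.14 (SE, 95% interval -0.12 to 0.47; edgeR, adjusted p = 0.393). The sum of the 3 ALDH3 genes was 67.3 ± 9.67 FPKM in Vector and 73.6 ± 5.10 FPKM in OE-MMP28, with overlapping groups, also chosen after the values were seen.

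The last pair serve amino acid and carnitine metabolism. ALDH9A1, which makes a carnitine precursor and also oxidises aminobutyraldehyde, lies on chromosome 1 from 165662216 to 165698863 (ENSG00000143149, minus strand). It was at 20.6, 19.3 and 19.7 FPKM in the Vector libraries and 27.6, 25.5 and 24.2 FPKM in the OE-MMP28 libraries. The groups did not overlap and the interval of its log2 fold change, 0.39 ± 0.14 (SE, 95% interval 0.09 to 0.69), did not reach 0, but after adjustment over all genes it did not pass (edgeR, adjusted p = 0.0580). DESeq2 put it past the threshold (0.38, adjusted p = 0.0387), the only 1 of 18 alternative fits that did. With a library left out its adjusted p was 0.0641 to 0.196 (edgeR). Taking off the median change of the tested genes within 10 Mb gave 0.28 ± 0.14 (SE, edgeR, adjusted p = 0.204). ALDH7A1, the lysine-degrading enzyme antiquitin, lies on chromosome 5 from 126531200 to 126595418 (ENSG00000164904, minus strand). It was at 3.23, 4.12 and 4.51 FPKM in Vector and 4.01, 3.61 and 4.02 FPKM in OE-MMP28, with all OE-MMP28 libraries inside the Vector range. Its log2 fold change was -0.02 ± 0.16 (SE, 95% interval -0.35 to 0.31; edgeR, adjusted p = 0.958), an interval that leaves room for a moderate change either way.

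On the FPKM scale with the deposited gene lengths, which allows levels to be compared between genes, ALDH1A3 stood first in both groups and did not overlap with the next gene. In Vector the order after it was ALDH3A2, ALDH3B1, ALDH9A1, ALDH3A1, ALDH2, ALDH1A1, ALDH1B1 and ALDH7A1, and the only other neighbours whose libraries did not overlap were ALDH1A1 and ALDH1B1. In OE-MMP28 the order after it was ALDH2, ALDH3A2, ALDH9A1, ALDH3B1, ALDH3A1, ALDH1B1, ALDH1A1 and ALDH7A1. There, neighbours without overlap were ALDH3A2 and ALDH9A1, ALDH3A1 and ALDH1B1, and ALDH1A1 and ALDH7A1. With the deposited lengths ALDH2 stood at rank 6 in Vector and rank 2 in OE-MMP28, where it overlapped with ALDH3A2. Most of this order depends on the gene length used. With the length of the longest coding transcript in place of the deposited length, ALDH1A3 was again first, but ALDH3B1 was at rank 2 in both groups, ALDH2 at rank 7 in Vector and rank 5 in OE-MMP28, and ALDH1B1 last in both. ALDH7A1, whose deposited length was 17970 bases against 4964 for that transcript, was then at rank 8 in Vector and rank 7 in OE-MMP28.

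The summed level of the 9 genes was 202, 204 and 189 FPKM in the Vector libraries and 255, 255 and 257 FPKM in the OE-MMP28 libraries. The groups did not overlap, and the means were 198 ± 8.40 and 256 ± 1.33 FPKM (SD, n = 3), a ratio of 1.29 (2-sided exact permutation test, p = 0.1, the smallest that 3 libraries against 3 allow). Without ALDH1A3 the ratio was 1.18, and over all 19 ALDH genes it was 1.21. Within the sum, ALDH2 went from 8.40% ± 1.16 to 12.2% ± 1.69 and ALDH1A1 from 6.80% ± 2.54 to 2.80% ± 0.535, each without overlap between the groups. ALDH1A3 held 36.4% ± 6.41 and 41.6% ± 2.41, with overlapping groups. The shares of ALDH3A2 (13.8% and 12.0%) and ALDH7A1 (2.00% and 1.52%) did not overlap between the groups with the deposited lengths but did with the longest coding transcripts.

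**Figure D3:**
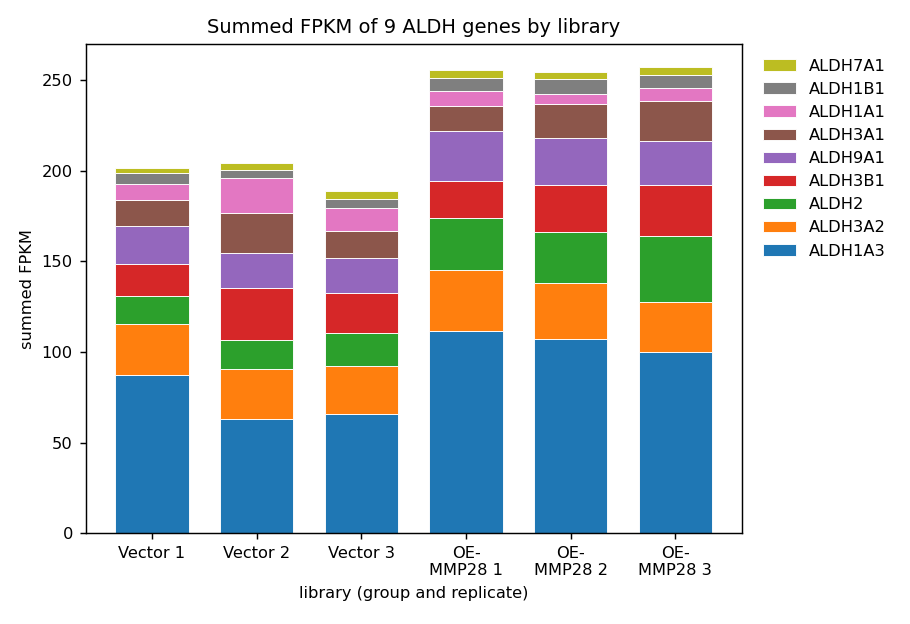
Summed FPKM of the 9 ALDH genes in each of the 6 libraries, as stacked bars from 0 with a colour for each gene. The 3 OE-MMP28 bars reach 255 to 257 FPKM and the 3 Vector bars 189 to 204 FPKM, with ALDH1A3 the largest block in every bar.

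Of the other 10 ALDH genes 6 were tested and 2 of them were higher, beside 11.7% of all tested genes, and with a library left out 0 to 2 were (0 without OE-MMP28 library 3). With all libraries 0 were lower, beside 11.6% of all tested genes. Without Vector library 1 or without OE-MMP28 library 1, 1 was lower. ALDH16A1, an atypical large member of the family, rose from 5.13 ± 0.720 to 8.75 ± 2.34 FPKM (log2 fold change 0.78 ± 0.20, SE, edgeR, adjusted p = 0.00684, and 0.0572 without OE-MMP28 library 3). ALDH4A1, which completes proline breakdown in mitochondria, rose from 0.747 ± 0.161 to 1.31 ± 0.178 FPKM (0.82 ± 0.28, SE; edgeR, adjusted p = 0.0394, above 0.05 without any one of the libraries other than Vector library 1), and another gene model on the same strand, AL080251.1, with 0 counts, covers 41.1% of its exon length. ALDH18A1, which acts in proline synthesis, was at 38.7 ± 6.32 FPKM in Vector and 28.6 ± 2.43 FPKM in OE-MMP28, without overlap and just short of the threshold (-0.43, edgeR, adjusted p = 0.0503). The 161 tested genes within 10 Mb of it had a median log2 fold change of -0.47, a larger fall than its own. ALDH5A1, ALDH6A1 and ALDH1L2 did not pass the test. ALDH1A2, ALDH1L1 and ALDH8A1 had at most 5 counts in a library and ALDH3B2 had 0 in all 6, so none of these 4 was tested. ALDH1A2 is the remaining retinaldehyde dehydrogenase of the ALDH1A group.

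Genes that supply or use the substrates of these enzymes were counted from lists drawn up by function. Each count is to be read against the 11.7% of all tested genes called higher and the 11.6% called lower (23.4% in either direction), and counts with each library left out in turn follow it. Of 24 retinoid genes 17 were tested, 2 were higher, 3 lower, and the median log2 fold change was -0.17 (1 to 2 higher and 3 to 4 lower with a library left out). The 5 calls are close to the share over all genes. RDH10, which oxidises retinol to the retinaldehyde that ALDH1A enzymes use, fell from 24.2 ± 3.87 to 13.4 ± 0.892 FPKM (edgeR, adjusted p = 0.000634). BCO1, which cleaves beta-carotene to retinaldehyde, fell from 2.96 ± 0.689 to 1.42 ± 0.169 FPKM (edgeR, adjusted p = 0.00435). RDH11, a retinaldehyde reductase, rose from 9.65 ± 0.707 to 13.5 ± 1.13 FPKM (edgeR, adjusted p = 0.0222, above 0.05 without any one of 5 libraries, OE-MMP28 library 3 being the exception). The remaining 2 calls were below 1 FPKM on average: the retinoic acid carrier CRABP1 had 3, 0 and 1 counts in Vector and 14, 13 and 18 in OE-MMP28, and CYP26B1, which breaks down retinoic acid, had 46, 29 and 37 counts in Vector and 5, 7 and 15 in OE-MMP28.

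Of 23 alcohol dehydrogenases and carbonyl reductases, which convert alcohols and aldehydes into each other, 14 were tested, 1 was higher and 2 were lower (median -0.04), a share near that of all genes and the same counts with any library left out. AKR1C1 fell from 8.46 ± 1.5 to 4.85 ± 0.685 FPKM (edgeR, adjusted p = 0.00203) and AKR1C2 from 5.22 ± 0.421 to 2.44 ± 0.387 FPKM (edgeR, adjusted p = 0.000198). These are near-identical paralogs that share reads, so the split between them is uncertain. AKR1B10, a reductase of retinaldehyde, was the one higher, at 3, 7 and 5 counts in Vector and 29, 29 and 18 in OE-MMP28.

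Of 19 genes in pathways that yield aldehydes or lie next to ALDH steps, 14 were tested, 4 were higher and 1 was lower (median 0.17), beside 11.7% and 11.6% of all genes, and with a library left out 4 to 5 were higher and 0 to 2 lower. MAOB, a monoamine oxidase of the outer mitochondrial membrane whose products are aldehydes, rose from 24.7 ± 4.94 to 44.3 ± 4.27 FPKM (edgeR, adjusted p = 0.000898). GCDH, a later enzyme of lysine breakdown than ALDH7A1, rose from 2.32 ± 0.224 to 4.70 ± 0.787 FPKM (edgeR, adjusted p = 0.000846). PAOX, a polyamine oxidase, fell from 3.03 ± 0.169 to 1.78 ± 0.463 FPKM (edgeR, adjusted p = 0.0375, and above 0.05 without Vector library 3, OE-MMP28 library 1 or OE-MMP28 library 2). MAOA and CHDH, both below 1 FPKM, were the other 2 called higher.

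NRF2 and AHR are transcription factors that are known to induce ALDH3A1 and other detoxifying enzymes. All 16 genes of the NRF2 list were tested, and 5 were lower and 1 higher, beside 11.6% and 11.7% of all genes, with a median log2 fold change of -0.38. Of these 6, NFE2L2 and KEAP1 are regulators and not antioxidant enzymes. The counts rested on single libraries: 2 were lower without Vector library 1, 7 without Vector library 2, 3 without Vector library 3 and 1 without OE-MMP28 library 2, and 0 to 2 were higher. Vector library 1 was the highest Vector library for many of the list, among them TXNRD1 (159 FPKM against 81.7 and 97.2) and SLC7A11 (12.8 FPKM against 6.47 and 6.67), neither of which was called. NQO1, a quinone reductase, fell from 155 ± 8.98 to 110 ± 7.51 FPKM (edgeR, adjusted p = 0.0175), and ME1, which makes NADPH, fell from 4.69 ± 0.507 to 1.94 ± 0.460 FPKM (edgeR, adjusted p = 0.000263). GCLC and GCLM, the subunits of the enzyme that starts glutathione synthesis, fell with log2 fold changes of -0.53 and -0.83 (edgeR, adjusted p = 0.0292 and 0.0104). GCLC was at 14.7, 9.25 and 10.6 FPKM in Vector and 8.44, 8.30 and 6.98 FPKM in OE-MMP28, and GCLM at 4.75, 2.51 and 3.18 FPKM and 2.34, 1.86 and 1.62 FPKM. Without Vector library 1 neither passed, with log2 fold changes of -0.32 and -0.54 (edgeR, adjusted p = 0.199 and 0.0701). Both calls were also lost without OE-MMP28 library 2 or OE-MMP28 library 3 (edgeR, adjusted p = 0.0509 to 0.116). Each of the list's calls but that of ME1 was lost without at least 1 library. NFE2L2, the gene of NRF2, fell by 0.55 on the log2 scale (edgeR, adjusted p = 0.0105), and KEAP1, its inhibitor, rose by 0.48 (edgeR, adjusted p = 0.0468). The groups overlapped for KEAP1, at 19.4, 14.1 and 14.1 FPKM in Vector and 18.2, 23.8 and 23.8 FPKM in OE-MMP28. Its adjusted p was above 0.05 without Vector library 2 or 3 or OE-MMP28 library 2 or 3 (edgeR, 0.126 to 0.207). Of 7 genes of the AHR pathway 6 were tested and 2 were higher, beside 11.7% of all genes, with a median of 0.10 (0 to 2 higher with a library left out, 0 without OE-MMP28 library 2): CYP1B1 rose from 1.04 ± 0.289 to 1.90 ± 0.331 FPKM (edgeR, adjusted p = 0.0111) and TIPARP from 27.0 ± 3.48 to 38.0 ± 4.79 FPKM (edgeR, adjusted p = 0.0210, above 0.05 without Vector library 2 or 3 or OE-MMP28 library 1 or 2). CYP1A1, a target widely used to read AHR activity, was low and not called (0.639 and 0.588 FPKM, edgeR, adjusted p = 0.865). ALDH3A1 itself did not pass the test.

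**Figure D4:**
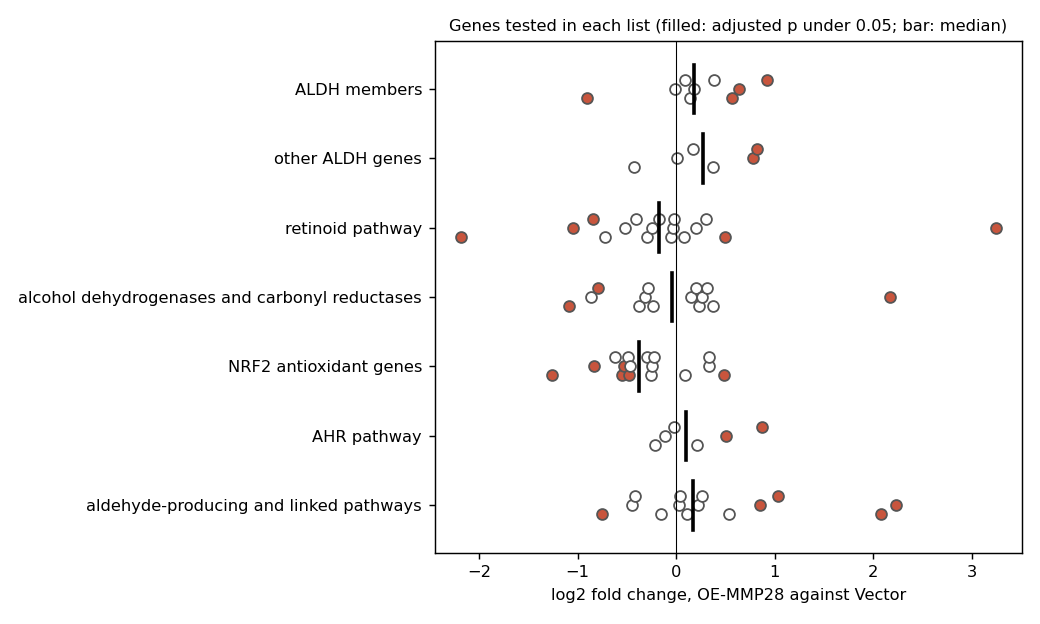
Log2 fold change, OE-MMP28 over Vector, of every tested gene in the lists by function, with 1 point a gene (filled where the adjusted p was under 0.05) and a bar at the median. The medians are -0.38 for the NRF2 antioxidant genes, -0.17 for the retinoid genes and 0.18 for the 9 ALDH genes, beside 0.01 over all tested genes, and points of genes with few counts, such as CRABP1, depend on the prior count of the fit.

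Genes whose levels followed those of the 3 members with the smallest adjusted p were sought outside the family among the 12245 tested genes that averaged 1 FPKM or more, by the Pearson r of log2 CPM (counts scaled to library size) over the 6 libraries, as a description. ALDH2 was most like PLEK2 (r = 0.998), ALDH1A1 most like PSORS1C1 (r = 0.997) and ALDH1A3 most like EMP1 (r = 0.999). With 6 libraries in 2 groups many genes reach such values: 177, 94 and 250 genes had r over 0.95 with ALDH2, ALDH1A1 and ALDH1A3. All points share their library and its scaling.

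**Figure D5:**
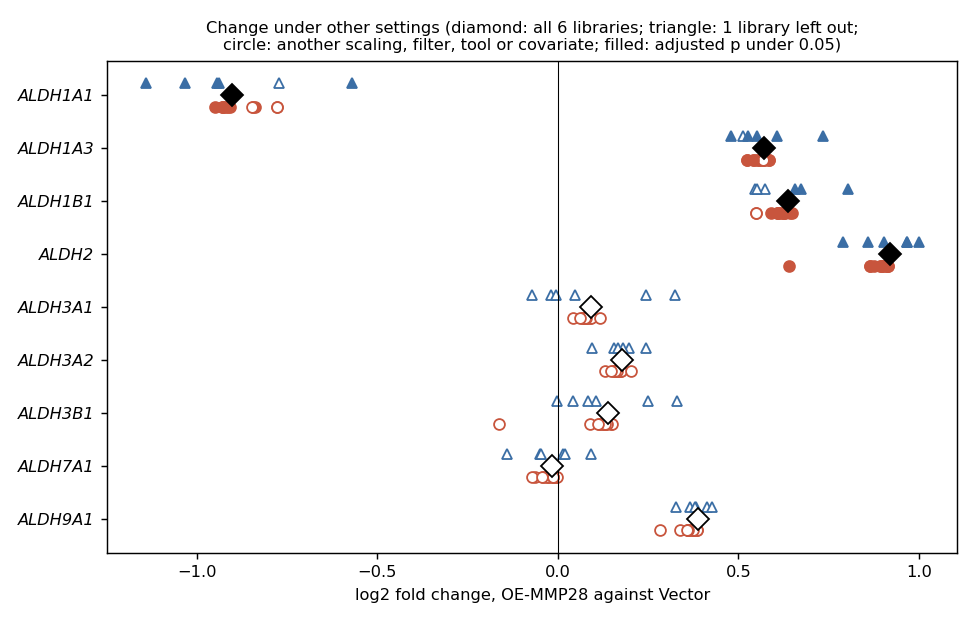
Log2 fold change of the 9 ALDH genes in edgeR with all 6 libraries (diamonds), with 1 library left out (triangles) and under the other settings (circles), with filled points where the adjusted p was under 0.05. ALDH2 was past the threshold under every setting shown, while ALDH1A1, ALDH1A3 and ALDH1B1 lost their calls under some and ALDH3A1, ALDH3B1 and ALDH7A1 crossed 0.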

How the data were processed

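The authors deposited 1 table of whole-number counts per gene, with their own FPKM values. These differ from counts over gene length and total count by a factor of each library, whose origin is not stated. The submitters' processing notes name HISAT2 2.0.5 and featureCounts 1.5.0-p3; the build and the handling of strand and of reads matching several places are not given in the sources used here. Coordinates of all 58735 genes equalled GENCODE 29 (GRCh38). The table also held fold changes and p-values of the authors' own comparison, which were not used.

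Counts were tested with edgeR 4.0.16 in R 4.3.3 (quasi-likelihood, group as the only term, TMM scaling, filterByExpr with a minimum count of 10 and total of 15), adjusted over 15319 genes. An earlier check on simulated counts used larger changes than those of the called ALDH genes, so it does not speak to effects of their size. Intervals are unadjusted. Alternatives used limma 3.58.1 (FPKM, pseudocount 1 or 0.1, minimum 0.5 FPKM, and voom), DESeq2 1.42.0, other scalings and filters, a replicate block, a local-median offset and each library left out. The sum over the 9 genes was compared by a 2-sided exact permutation test. A count of 0 allows up to 3 counts, 0.180 to 0.220 CPM, counting error only.

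Members and lists were chosen with earlier results of these data known. Named were all 9 members, MMP28, any other ALDH gene, listed genes called with a mean of at least 1 FPKM, and the most alike genes; list genes under 1 FPKM and the marker genes were named after their values were seen. After the fits, 1 gene was taken out of the retinoid list and is not reported here.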

Additional observations from a re-analysis of the deposited data

How the results depend on the processing

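ALDH2 kept its call in all 18 alternatives, and ALDH3A2 kept its direction uncalled. For ALDH1A1 the call was lost in limma on log2(FPKM + 1) (-0.78), on log2(FPKM + 0.1) (-0.85) and without a filter (-0.78). Limma without a filter also lost ALDH1A3 (0.57), ALDH1B1 (0.55) and MMP28 (0.84), and DESeq2 called ALDH9A1 (0.38). Taking off the local median turned ALDH3B1 to -0.16. Leaving out 1 library at a time gave log2 fold changes from -1.14 to -0.57 for ALDH1A1, 0.48 to 0.73 for ALDH1A3, 0.55 to 0.80 for ALDH1B1, -0.072 to 0.32 for ALDH3A1, -0.0012 to 0.33 for ALDH3B1, -0.14 to 0.091 for ALDH7A1 and 0.69 to 1.05 for MMP28. Among the 9 genes, those called higher numbered 3 in edgeR, 1 to 3 with a library left out (1 without Vector library 3), 1 in limma without a filter and 4 in DESeq2. Those called lower numbered 1 in edgeR and 0 to 1 with a library left out (0 without OE-MMP28 library 2, 1 at an unadjusted p under 0.05), and 0 in each limma fit on FPKM, where 1 had an unadjusted p under 0.05; DESeq2 and limma voom called 1. The causes were not tested.

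Over all genes, 1795 were higher and 1784 lower in edgeR. Limma gave 1009 and 965 (pseudocount 1), 1000 and 970 (0.1) and 362 and 308 (no filter). The local-median offset gave 1104 higher and 1224 lower, and a library left out 985 to 1916 higher and 1044 to 1949 lower. The ratio of summed levels was 1.29, and it was 1.21 over 19 genes, 1.35 from TPM (levels rescaled to 1 total per library), 1.18 without ALDH1A3 and 1.26 to 1.31 with a library left out. The fits without mitochondrial genes, the lists with a library left out, the order and shares with the longest coding transcript and the sum without ALDH1A3 were chosen after seeing the data. Libraries with the same replicate number did not deviate together (correlations 0.0168, 0.00798 and -0.0876), and the replicate block gave the same calls, 3 higher and 1 lower, with -0.84 for ALDH1A1. The 9 genes had at least 186 counts in every library, fewest in ALDH1B1.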
